A study of Mus musculus with 26 samples.

Results

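The 7 mouse genes of the FOS family (*Fos*, *Fosb*, *Fosl1* and *Fosl2*) and of the JUN family (*Jun*, *Junb* and *Jund*) were followed by RNA sequencing in brown preadipocytes that differed in their insulin receptor (IR). They were chosen by name as the classical subunits of the transcription factor AP-1, and they are 7 of 52962 genes with deposited counts. All 7 were among the 15402 genes with enough counts to be tested. The cells came from the brown fat of newborn mice with floxed *Insr* and *Igf1r*, were immortalized with SV40 T-antigen and lost both receptors through adenoviral Cre (DKO cells). DKO cells then received, by retrovirus, human IR of the B isoform (IR cells), a kinase-dead form of it (K1030R cells), a form without the last 79 residues of the C-terminus (∆CT cells), or a form that keeps 36 juxtamembrane residues of the intracellular part and lacks the kinase domain and the C-terminus (JMO cells). The receptors carried a FLAG tag. The paper also names an empty retroviral vector and hygromycin selection. It does not state whether the DKO samples sequenced here carried that vector. All groups, DKO included, therefore derive from cells labelled as carrying the *Insr* and *Igf1r* deletions and the SV40 T-antigen. Cells were starved of serum for 6 h and then either left in the basal state or given 100 nM insulin for 15 min, except that DKO cells were studied in the basal state alone. Each of the 9 groups had 3 libraries, and ∆CT with insulin had 2, for 26 in all. Every receptor is represented by 1 cell line, so replicates of a group share that line, and p-values measure the spread between these samples, which may be in part technical.

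FOS and JUN proteins are leucine zipper factors that bind DNA as dimers. FOS proteins need a JUN partner, whereas JUN proteins also pair with each other, and together they form AP-1. Several of their genes are immediate-early genes, which growth factors switch on within minutes through ERK and other MAP kinases without new protein synthesis. In fat cell precursors AP-1 is known as a target of insulin and of other growth signals.

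Library totals ran from 17228982 to 24694828 counts, and the biological coefficient of variation between libraries of a group was 4.44%. Levels are given as counts per 1000000 (CPM) after scaling of library size. At these totals the lowest value of a member, 1.30 CPM for *Fos*, was 26 counts. Mouse *Insr* counts, which can include reads from the human receptor, had a mean of 23.8 CPM in DKO cells and from 67.7 to 78.4 CPM in the basal receptor lines. *Igf1r* had 27.1 CPM in DKO cells and from 30.1 to 35.1 CPM in the basal receptor lines. Counts per gene do not show which exons the reads came from, so the levels of both genes, which were not near 0, do not check the deletions. The paper reports that DKO cells lacked both receptors, as mRNA and as protein. Of 10 markers of preadipocytes and mesenchymal cells 7 were tested, with a summed level of 861 to 974 CPM, led by *Pdgfrb* and *Pdgfra*, while *Dlk1*, *Ebf2* and *Prdm16* stayed at or below 0.403 CPM in every library. Single markers within that sum varied more between libraries, with *Ly6a* from 2.28 to 49.2 CPM and *Cd34* from 2.93 to 15.6 CPM. The part of this variation in the results was not tested. Of 7 markers of mature brown adipocytes *Ppargc1a* (5.38 to 14.6 CPM) and *Fabp4* (0.444 to 4.76 CPM) were tested, while *Ucp1*, *Cidea*, *Adipoq* and *Dio2* were at most 0.0801 CPM. Their sum was lowest in DKO cells (7.88 to 8.89 CPM) and highest in basal JMO cells (12.7 to 15.8 CPM), and its part in the results was not tested. Of 5 muscle precursor markers *Des* alone was tested (1.76 to 4.75 CPM, with its highest value in JMO cells), and *Myod1* and *Myf5* had 0 counts in all libraries. Of 5 endothelial markers *Pecam1* alone was tested. RNA came from whole dishes, so fewer cells of a type and less RNA per cell cannot be told apart.

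The members lie at separate places in the mouse genome (GRCm38, GENCODE release M21). *Fos* (ENSMUSG00000021250) is on chromosome 12 at chr12:85473890-85477273, *Fosb* (ENSMUSG00000003545) at chr7:19302696-19310051, *Fosl1* (ENSMUSG00000024912) at chr19:5447547-5455946 and *Fosl2* (ENSMUSG00000029135) at chr5:32135801-32157842. *Jun* (ENSMUSG00000052684) is at chr4:95049034-95052222, and *Junb* (ENSMUSG00000052837) and *Jund* (ENSMUSG00000071076) are both on chromosome 8, at chr8:84974484-84978718 and chr8:70698949-70700616. *Jun* and *Jund* consist of a single exon each. For 4 members a gene on the opposite strand overlaps, namely *Ccdc85b* for *Fosl1*, the antisense gene *Junos* for *Jun*, *Prdx2* for *Junb* and the antisense gene *Gm11175* for *Jund*. The reads were reverse-stranded, but the strand setting used for counting is not given in the sources used here, so reads of these partners may not be fully apart. None of the 3 partners that could be tested was called for insulin in IR cells, with log2 fold changes from -0.32 to -0.02.

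*Fos*, *Jun* and *Junb* were the members called with insulin in 3 of the 4 receptor lines, and the sequence just before each start site is shown for that reason. RefSeq (GRCm38.p6) gave such a sequence for 6 of the 7 members, placed by its own start sites. For *Jund* (chr8:70697489-70697738), *Fosl2* (chr5:32136222-32136471), *Junb* and *Fosb* (chr7:19310046-19310295) these sites differ from the gene starts given above. The *Jund* sequence ends well before the gene start, and the *Fosl2* sequence lies inside the gene. For *Junb* and *Fosb* the difference is small. The *Junb* sequence ends shortly before the gene start, and the *Fosb* sequence runs a few bases into the gene. The 250 bases before the start are at chr12:85473640-85473889 on the plus strand for *Fos*, at chr4:95052223-95052472 on the minus strand for *Jun* and at chr8:84978749-84978998 on the minus strand for *Junb*, written 5′ to 3′ along the gene, with capitals for short motifs:
Fos: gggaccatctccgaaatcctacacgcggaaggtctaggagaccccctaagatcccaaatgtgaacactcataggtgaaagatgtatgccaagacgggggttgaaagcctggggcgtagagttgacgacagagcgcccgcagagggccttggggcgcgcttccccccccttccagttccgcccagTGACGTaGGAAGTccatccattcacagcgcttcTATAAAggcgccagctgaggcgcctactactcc
Jun: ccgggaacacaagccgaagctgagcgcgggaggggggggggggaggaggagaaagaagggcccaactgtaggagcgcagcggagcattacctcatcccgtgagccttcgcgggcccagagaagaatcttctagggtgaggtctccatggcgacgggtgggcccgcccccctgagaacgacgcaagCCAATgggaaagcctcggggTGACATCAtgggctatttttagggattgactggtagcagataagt
Junb: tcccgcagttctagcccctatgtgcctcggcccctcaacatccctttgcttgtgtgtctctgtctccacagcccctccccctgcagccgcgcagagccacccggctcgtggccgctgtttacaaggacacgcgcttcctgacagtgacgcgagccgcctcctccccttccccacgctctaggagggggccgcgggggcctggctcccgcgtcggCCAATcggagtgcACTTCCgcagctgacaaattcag

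In the *Fos* sequence the capitals mark, in order, the core TGACGT of a cAMP response element, the ETS core GGAAGT and a TATA box (TATAAA). The TATA box begins 33 bases before the start. In the *Jun* sequence they mark a CCAAT box and the AP-1-like element TGACATCA, 65 and 45 bases before the start. In the *Junb* sequence they mark a CCAAT box, 36 bases before the RefSeq start, and the ETS core on the other strand, which reads ACTTCC here. Both strands were searched, and TGACGT forms part of the full element TGACGTCA. Of 32851 promoter windows of the same length, 12.4% held TATAAA, 33.8% CCAAT, 6.47% TGACGT, 2.93% TGACATCA and 19.7% GGAAGT. The AP-1 site TGACTCA was in 4.46% of all windows, TGACGTCA in 1.55% and a CArG box in 1.47%, and none of these 3 occurred in the 6 members' windows. The search covered only the 250 bases before the start, so sites farther upstream were not looked for. For *Jund* and *Fosl2* the windows lie away from the gene start given above, and those of *Junb* and *Fosb* are slightly shifted from it.

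Insulin raised 5 members in IR cells, 6 in ∆CT cells, 3 in JMO cells and 0 in K1030R cells, and lowered none in any line, also at an unadjusted p below 0.05. A gene was called when its adjusted p was below 0.05 after Benjamini-Hochberg correction of edgeR's quasi-likelihood p over all 15402 genes. Of all tested genes, 1.40% were called higher and 0.474% lower with insulin in IR cells, and 0.935% and 0.0714% in ∆CT cells. The shares were 0.331% and 0.0325% in JMO cells, and 0.110% and 0.0454% in K1030R cells. With a required change of 1.5-fold, 4 members passed in IR, 4 in ∆CT, 1 in JMO and 0 in K1030R cells, against 0.221%, 0.214%, 0.0390% and 0% of all genes. In K1030R cells DESeq2 and limma-voom also called 0 members, and 1 member, *Jun*, had an unadjusted p below 0.05. *Fos* had the largest log2 fold change in every line, and those of *Fosl2* and *Jund* stayed between -0.08 and 0.22.

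**Figure D1:**
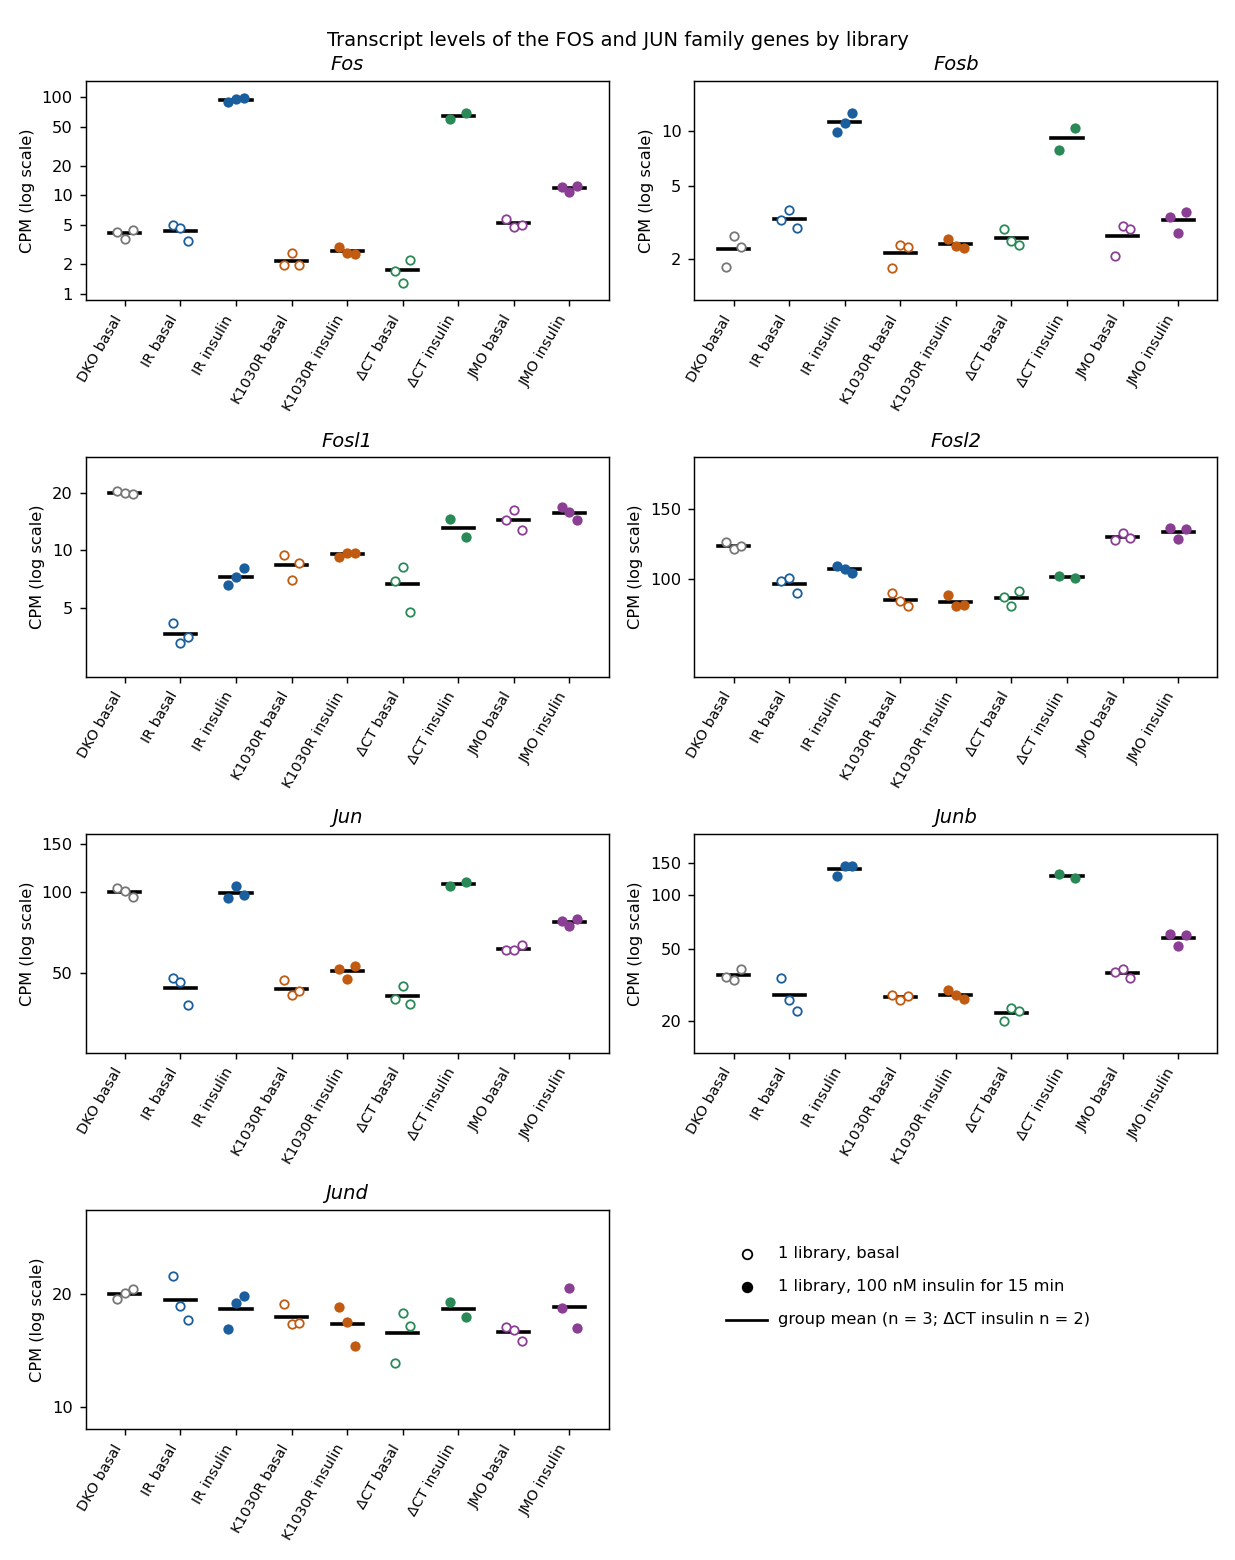
Level of each of the 7 genes in CPM (log axis) in every library, by group, with open points for basal and filled points for insulin-treated libraries and a bar at the group mean (n = 3, ∆CT insulin n = 2). *Fos*, *Fosb* and *Junb* stand far above their basal points with insulin in IR and ∆CT cells, *Fosl1* and *Jun* are highest or near their highest in DKO cells, and *Jund* lies between 13.1 and 22.2 CPM throughout.

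*Fos* encodes c-Fos, the prototype immediate-early AP-1 subunit. In IR cells it had 5.0, 4.67 and 3.46 CPM in the basal libraries and 89.0, 95.3 and 96.6 CPM with insulin. In ∆CT cells it had 1.71, 1.30 and 2.23 CPM in the basal state and 60.1 and 68.0 CPM with insulin. Basal and treated libraries were far apart in both lines, and the lowest treated library was many times the highest basal one. The log2 fold change was 4.41 ± 0.09 (SE, n = 3 and 3) in IR cells, a 21.3-fold rise with an adjusted p of 8.11e-28. It was 5.20 ± 0.12 (n = 3 and 2) in ∆CT cells, a 36.8-fold rise with an adjusted p of 7.72e-27. JMO cells went from 5.81, 4.74 and 5.05 CPM to 12.1, 10.9 and 12.5 CPM. All 3 treated JMO libraries lay above all 3 basal ones, with a log2 fold change of 1.17 ± 0.11 and an adjusted p of 1.03e-08. K1030R cells had 1.95, 2.62 and 1.97 CPM without and 3.03, 2.62 and 2.54 CPM with insulin. These K1030R groups overlapped, and the log2 fold change of 0.31 (95% interval -0.06 to 0.68) had an adjusted p of 0.903.

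*Fosb* encodes a c-Fos relative that is also an early-response gene. Its CPM in IR cells were 3.25, 3.69 and 2.96 in the basal state and 9.91, 11.1 and 12.5 with insulin. In ∆CT cells they were 2.89, 2.50 and 2.38 in the basal state and 7.85 and 10.4 with insulin. Treated libraries lay above basal ones in both lines, by a log2 fold change of 1.76 ± 0.14 in IR cells (adjusted p = 3.51e-11) and 1.82 ± 0.16 in ∆CT cells (adjusted p = 5.13e-10). In JMO cells the basal values of 2.07, 3.01 and 2.92 CPM overlapped the treated values of 3.38, 2.76 and 3.60 CPM. The JMO log2 fold change was 0.29 (95% interval -0.05 to 0.64, adjusted p = 0.795). In K1030R cells all 6 libraries lay between 1.78 and 2.57 CPM, with a log2 fold change of 0.14 (adjusted p = 0.985).

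*Fosl1* encodes FRA1, a FOS protein without the strong transactivation domain of c-Fos. With insulin it went from 4.14, 3.26 and 3.51 CPM to 6.56, 7.21 and 8.05 CPM in IR cells. It went from 6.92, 8.14 and 4.76 CPM to 14.6 and 11.7 CPM in ∆CT cells. The groups did not overlap in either line, and the log2 fold changes were close to each other, at 0.99 ± 0.16 (adjusted p = 0.000204) and 0.98 ± 0.15 (adjusted p = 8.64e-05). In ∆CT cells the call was lost when the model held only the groups compared (adjusted p = 0.190). Basal and treated libraries overlapped in JMO cells, between 12.8 and 16.9 CPM, and in K1030R cells, between 6.95 and 9.70 CPM. Their log2 fold changes were 0.13 (adjusted p = 0.921) and 0.20 (adjusted p = 0.936).

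*Fosl2* encodes FRA2, which is known to be expressed for longer than c-Fos after stimulation. Its insulin effect was small in every line. In ∆CT cells it had 90.2, 85.5 and 93.0 CPM in the basal state and 102 and 101 CPM with insulin, a log2 fold change of 0.17 ± 0.04 with an adjusted p of 0.0347. That call was lost without ∆CT basal replicate 1 (adjusted p = 0.0762) or 2 (0.204), without ∆CT insulin replicate 1 (0.286) or 2 (0.211), with limma-voom (0.053) and with only the groups compared (0.218). In IR cells it had 99.1, 101 and 92.1 CPM without and 108, 106 and 104 CPM with insulin. These groups did not overlap either, and the log2 fold change of 0.12 ± 0.04 had an adjusted p of 0.0967. The values in K1030R (-0.02) and JMO cells (0.05) were not called.

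*Jun* encodes c-Jun, the JUN protein with the strongest activating function, and its product is known to act on its own promoter. In IR cells it went from 48.1, 46.6 and 38.2 CPM to 94.7, 105 and 97.3 CPM. In ∆CT cells it went from 40.4, 44.9 and 38.7 CPM to 105 and 109 CPM. Treated libraries were about at one level in both lines, well above the basal ones, with log2 fold changes of 1.16 ± 0.07 (adjusted p = 1.13e-12) and 1.37 ± 0.07 (adjusted p = 2.81e-13). In JMO cells *Jun* went from 60.8, 60.7 and 63.3 CPM to 77.7, 74.7 and 79.5 CPM, again with no overlap. The log2 fold change there was 0.33 ± 0.06 with an adjusted p of 0.015. This call was lost without JMO basal replicate 1 or 2 or JMO insulin replicate 1 or 3, with adjusted p from 0.0884 to 0.115. In K1030R cells the basal values of 47.2, 41.6 and 43.0 CPM lay just below the treated values of 51.8, 47.7 and 53.3 CPM. The K1030R log2 fold change of 0.21 (95% interval 0.07 to 0.36) had an unadjusted p of 0.00521 and an adjusted p of 0.458.

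*Junb* encodes a JUN protein that can restrain c-Jun on some genes and activates others. It had 34.5, 26.3 and 22.8 CPM in basal IR cells and 127, 144 and 145 CPM after insulin. In ∆CT cells it had 20.1, 23.7 and 22.9 CPM in the basal state and 129.9 and 124 CPM after insulin. The log2 fold changes were 2.30 ± 0.10 (4.94-fold, adjusted p = 4.63e-12) and 2.51 ± 0.11 (5.71-fold, adjusted p = 7.18e-12), second to *Fos* among the members in both lines. In JMO cells it went from 37.5, 38.8 and 34.8 CPM to 60.7, 52.3 and 60.1 CPM. This rise, without overlap, was a log2 fold change of 0.64 ± 0.10 with an adjusted p of 0.00599. K1030R libraries all lay between 26.3 and 29.6 CPM, and the log2 fold change was 0.04 (95% interval -0.21 to 0.29, adjusted p = 0.993).

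*Jund* encodes JunD, which is known as the constitutively expressed JUN protein. It was not called for insulin in any line. Its 26 libraries lay between 13.1 and 22.2 CPM, and basal and treated libraries overlapped in all 4 lines. The log2 fold changes ran from -0.08 in IR cells to 0.22 in JMO cells, with adjusted p from 0.633 to 0.991.

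**Figure D2:**
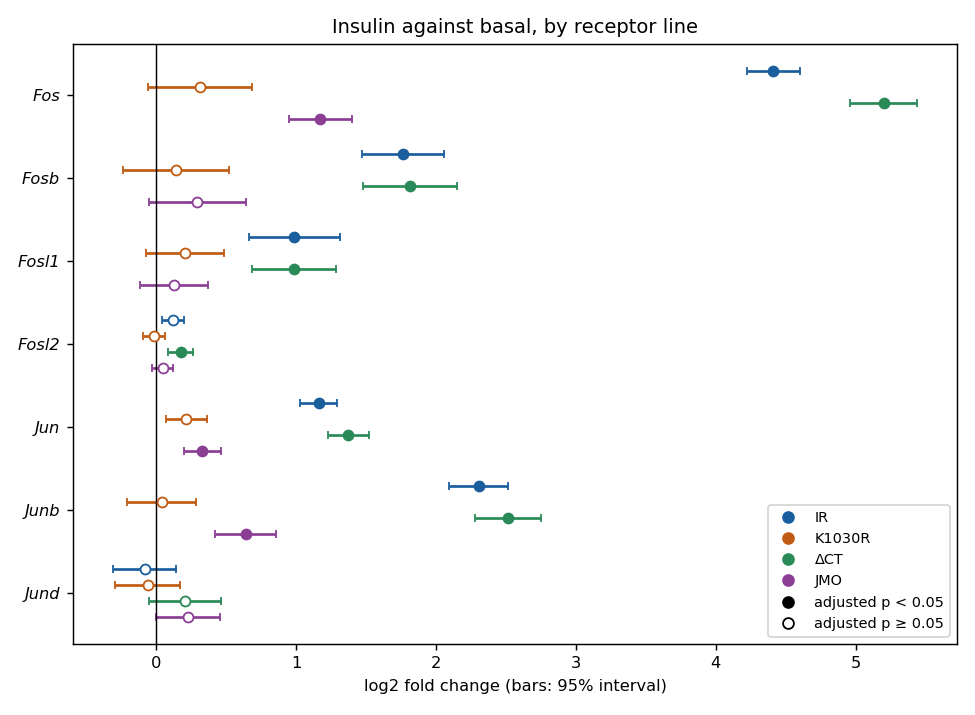
Log2 fold change of insulin-treated against basal cells for each gene and receptor line, with 95% intervals from edgeR's quasi-likelihood fit; filled points have an adjusted p below 0.05. *Fos* has the largest values, at 4.41 in IR and 5.20 in ∆CT cells, JMO values lie between those of K1030R and IR cells for *Fos*, *Fosb*, *Jun* and *Junb*, and all *Jund* intervals include 0.

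The question of whether the receptor forms differed in their insulin effect was put to the difference itself, in the same model. The effects in K1030R cells were smaller than in IR cells for 4 members, *Fos* (difference of log2 fold changes -4.10), *Junb* (-2.27), *Fosb* (-1.62) and *Jun* (-0.94), where 0.370% of all tested genes were lower in this way. The same 4 members had smaller effects in JMO than in IR cells, with differences of -3.24 for *Fos*, -1.67 for *Junb*, -1.47 for *Fosb* and -0.83 for *Jun*, against 0.279% of all genes. Over all genes, without IR basal replicate 3 the counts called went from 57 to 182 for K1030R and from 43 to 97 for JMO against IR, while 4 to 5 members were called without any 1 library. Adjusted p of these 8 differences ran from 1.12e-16 to 0.000106. *Fosl1* had differences from IR of -0.79 in K1030R (adjusted p = 0.155) and of -0.86 in JMO cells (adjusted p = 0.0558). The JMO value of *Fosl1* was called with upper-quartile scaling (adjusted p = 0.0466), DESeq2 (0.00936), the replicate block (0.0477) and without ∆CT basal replicate 3 (0.00298), among others. These comparisons share the IR libraries.

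Against ∆CT cells, JMO cells had smaller effects for 5 members, *Fos* (-4.03), *Junb* (-1.88), *Fosb* (-1.52), *Jun* (-1.05) and *Fosl1* (-0.86), where 0.253% of all genes were lower. The first 4 had adjusted p of 0.000182 or smaller, whereas *Fosl1* (adjusted p = 0.038) lost its call without any 1 of 16 libraries, with an adjusted p of up to 0.424 without ∆CT insulin replicate 1. ∆CT exceeded K1030R effects for *Fos* (4.89), *Junb* (2.48), *Fosb* (1.67) and *Jun* (1.16), against 0.409% of all genes higher. *Fosl2* and *Jund* were called in none of the 6 comparisons of insulin effects.

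Between ∆CT and IR cells 0 members differed in their insulin effect in edgeR, DESeq2 and limma-voom, and 0.00649% of all genes did in edgeR. At an unadjusted p below 0.05 there were 2, *Fos* with a difference of 0.79 (95% interval 0.41 to 1.17, adjusted p = 0.979) and *Jun* with 0.21 (0.01 to 0.41, adjusted p = 1). *Fos* started lower in ∆CT than in IR cells and also ended lower, with treated means of 64.0 ± 5.61 (SD, n = 2) and 93.6 ± 4.06 CPM (n = 3). The intervals of the other members allow differences of up to 0.63 on the log2 scale. Between JMO and K1030R cells edgeR and limma-voom called 0 members and DESeq2 called 1, *Junb* (adjusted p = 0.0202), and 0.0260% of all genes were called in edgeR. The 2 members at an unadjusted p below 0.05 were *Fos*, with a difference of 0.86 (95% interval 0.42 to 1.30, adjusted p = 0.421), and *Junb*, with 0.60 (0.27 to 0.93, adjusted p = 0.825). *Junb* was called there without IR basal replicate 1 (adjusted p = 0.0208), a library that is in neither line.

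In the basal state, each receptor line had lower levels of several AP-1 subunits than DKO cells. Of the 7 genes, 4 were lower and 1 higher in IR cells, 5 were lower in K1030R cells, 6 in ∆CT cells and 3 in JMO cells. Among all tested genes 24.1% were lower and 25.6% higher in IR cells, 20.4% and 21.2% in K1030R, 22.9% and 23.4% in ∆CT, and 17.4% and 16.9% in JMO cells. With a required change of 1.5-fold, 2, 2, 3 and 0 members passed in IR, K1030R, ∆CT and JMO cells, against 6.89%, 5.29%, 6.29% and 2.11% of all genes. *Jun* and *Fosl1* were lower in all 4 lines, *Fosl2* and *Junb* in the 3 lines with a kinase domain, whether active or not, and *Fos* in K1030R and ∆CT cells. The 4 comparisons share the 3 DKO libraries.

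*Fosl1* had 20.4, 19.9 and 19.8 CPM in DKO cells, above every other library. Against the basal values given before, its log2 fold change was -2.45 ± 0.14 in IR (adjusted p = 1.04e-14), -1.60 ± 0.13 in ∆CT (adjusted p = 2.07e-11) and -1.27 ± 0.13 in K1030R cells (adjusted p = 1.67e-09). In JMO cells, with 14.4, 16.2 and 12.8 CPM, it was -0.47 ± 0.12 (adjusted p = 0.00192). Among the lines IR was lowest, ∆CT and K1030R overlapped above it, and JMO came closest to DKO without overlap.

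*Jun* had 103, 101 and 95.1 CPM in DKO cells, more than in any basal library with a receptor. Its log2 fold change was near -1.2 in 3 lines, at -1.17 for IR, -1.18 for K1030R and -1.27 for ∆CT cells (SE 0.07 each, adjusted p of 9.17e-14 or smaller), and these 3 basal groups overlapped. JMO cells lay between, at -0.69 ± 0.06 (adjusted p = 2.62e-09). With insulin, *Jun* in IR cells (94.7 to 105 CPM) reached the range of untreated DKO cells, and in ∆CT cells it was above that range.

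*Fos* had 4.29, 3.58 and 4.48 CPM in DKO cells, which overlapped IR cells (log2 fold change 0.08, 95% interval -0.21 to 0.36). It was lower in K1030R cells by a log2 fold change of -0.92 ± 0.17 (adjusted p = 2.46e-05) and in ∆CT cells by -1.26 ± 0.17 (adjusted p = 2.03e-07), with no overlap. In JMO cells all 3 libraries were above all 3 DKO libraries, at a log2 fold change of 0.33 and an adjusted p of 0.0522. That value crossed the threshold under several alternatives, such as upper-quartile scaling (adjusted p = 0.0395) and without DKO replicate 3 (0.0478).

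*Junb* had 35.0, 33.8 and 38.9 CPM in DKO cells. It was lower in ∆CT cells by a log2 fold change of -0.70 ± 0.12 (adjusted p = 5.96e-05) without overlap. The values of -0.40 in K1030R (adjusted p = 0.00843) and -0.36 in IR cells (adjusted p = 0.012) were closer to the spread, and IR and DKO libraries overlapped. The K1030R call was lost without DKO replicate 3 (adjusted p = 0.0517), and the IR call without DKO replicate 3 (0.0696), without IR basal replicate 3 (0.0694, log2 fold change -0.23) and with only the groups compared (0.142).

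*Fosl2* had 124, 119 and 121 CPM in DKO cells, and its replicates were close together. It was lower, with log2 fold changes of -0.32 in IR cells, -0.45 in K1030R cells and -0.44 in ∆CT cells (SE 0.04 each, adjusted p of 1.21e-08 or smaller), without overlap, and stood at 0.07 in JMO cells (adjusted p = 0.156). *Fosb* was the 1 member that was higher in a receptor line, in IR cells, at a log2 fold change of 0.54 ± 0.17 from 1.79, 2.67 and 2.32 CPM in DKO cells (adjusted p = 0.00983). This call was lost without DKO replicate 1 (adjusted p = 0.0758) or IR basal replicate 2 (0.052). *Jund* had 19.3, 20.1 and 20.6 CPM in DKO cells and was lower by -0.35 ± 0.11 in ∆CT (adjusted p = 0.0115) and by -0.34 ± 0.11 in JMO cells (adjusted p = 0.0179). The *Jund* call was lost without ∆CT basal replicate 1 (0.0896) in ∆CT cells, and without DKO replicate 3 (0.0672) or JMO basal replicate 3 (0.0723) in JMO cells.

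**Figure D3:**
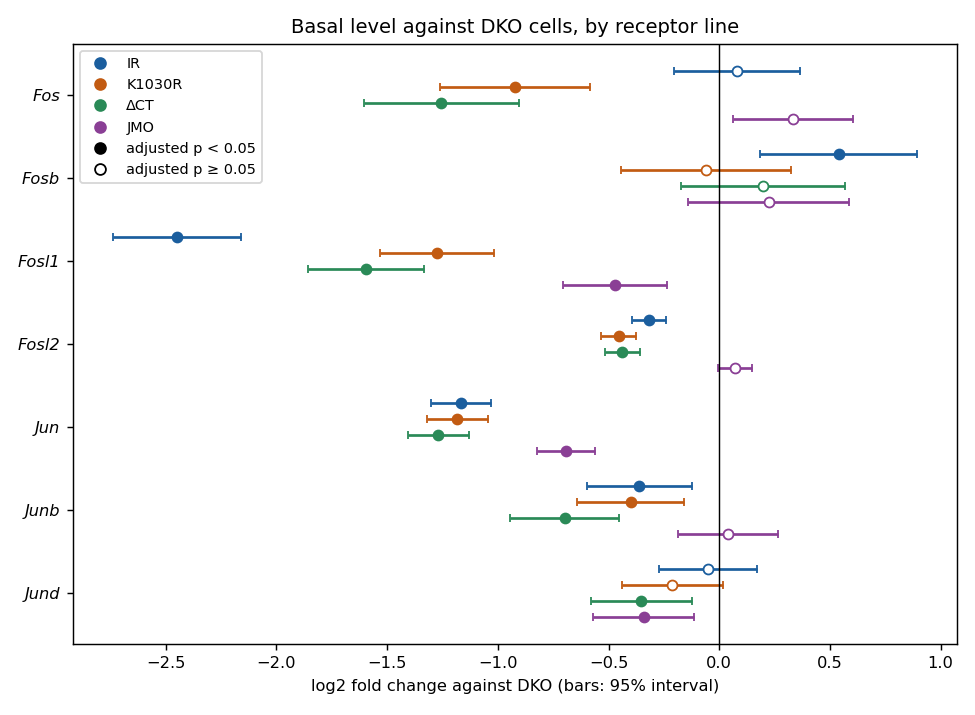
Log2 fold change of each gene in the basal receptor lines against basal DKO cells, with 95% intervals; filled points have an adjusted p below 0.05 in edgeR's quasi-likelihood test. *Fosl1* reaches -2.45 in IR cells, *Jun* lies from -1.27 to -0.69 in all 4 lines, and *Fos* is below 0 in K1030R and ∆CT cells and not called in IR and JMO cells.

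Between receptor lines in the basal state, JMO cells had the most members with higher levels. Compared with K1030R and with ∆CT cells, *Fos*, *Fosl1*, *Fosl2*, *Jun* and *Junb* were each higher in JMO cells, where 17.4% and 19.5% of all genes were called higher and 18.0% and 19.3% lower. The largest of these differences were for *Fos*, at 1.26 ± 0.16 above K1030R (adjusted p = 6.32e-08) and 1.59 ± 0.16 above ∆CT cells (adjusted p = 7.44e-10). Compared with IR cells, *Fosl1* (1.98), *Jun* (0.47), *Junb* (0.40) and *Fosl2* (0.39) were higher in JMO cells and *Jund* (-0.29) was lower, against 20.7% higher and 21.8% lower among all genes. With a required change of 1.5-fold, 1 member passed for JMO against IR (4.59% of all genes), 1 for JMO against K1030R (3.64%) and 2 for JMO against ∆CT cells (4.50%). The *Jund* difference was not called without IR basal replicate 1 (log2 fold change -0.17, adjusted p = 0.264) or without any 1 of the 3 JMO basal replicates (0.0569 to 0.117), and *Junb* was not called with only the groups compared (0.099).

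*Fos* was lower in K1030R (-1.0 ± 0.16, adjusted p = 1.19e-05) and ∆CT cells (-1.33 ± 0.17, adjusted p = 2.53e-07) than in IR cells, while *Fosl1* was higher, by 1.18 ± 0.16 (adjusted p = 1.11e-06) and 0.85 ± 0.16 (adjusted p = 0.000172). In all, 3 members were lower and 1 higher in K1030R than in IR cells, with 16.3% and 13.9% of all genes. The others were *Fosb* (-0.60) and *Fosl2* (-0.14), and both calls were lost without IR basal replicate 2 (adjusted p of 0.0504 and 0.0569), which left 2 members. *Fosb* was also lost without K1030R basal replicate 1 (0.0654), and *Fosl2* without K1030R basal replicate 3 (0.067) and with only the groups compared (0.0546). In ∆CT against IR cells 4 were lower and 1 higher, with 14.8% and 11.2% of all genes, but 3 of the lower ones, *Fosl2* (-0.12), *Junb* (-0.34) and *Jund* (-0.30), overlapped between groups and had adjusted p from 0.0208 to 0.0483. The count of 5 became 2 without IR basal replicate 1 or 2, and 3 without any 1 of 13 other libraries. With a required change of 1.5-fold, 1 member passed in each of these comparisons, against 1.04% of all genes for K1030R and 0.708% for ∆CT cells. Between ∆CT and K1030R cells edgeR, DESeq2 and limma-voom called 0 members, 2 had an unadjusted p below 0.05 (*Junb* at -0.30 and *Fosl1* at -0.32), and edgeR called 3.43% of all genes. Without IR basal replicate 1 *Junb* was called (adjusted p = 0.0448).

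Basal IR replicate 3 had the lowest value of its group for 6 of the 7 genes, *Fosl1* being the exception. In the same group *Junb* ranged from 22.8 to 34.5 CPM, the widest basal spread of that gene. Summed levels of 6 macrophage and leukocyte markers, of which 3 were tested, were 14.3 to 16.7 CPM in DKO, 12.8 to 15.2 CPM in JMO and 7.06 to 11.7 CPM in the libraries of the other lines, so that DKO and JMO cells were highest, as for basal *Fosl1* and *Jun*. The defining marker *Adgre1* had 0 counts in every library and *Ptprc* was at most 0.399 CPM, and the part of this list in the basal differences was not tested.

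Levels per length allow the genes to be set against each other. Divided by exonic length, from 1668 bases for *Jund* to 9680 bases for *Fosl2*, the 7 genes summed to 83.4 ± 0.962 CPM per kilobase in DKO cells (SD, n = 3). The basal sums were 51.8 ± 6.50 in IR, 50.6 ± 2.6 in K1030R, 45.7 ± 2.9 in ∆CT and 67.8 ± 1.7 CPM per kilobase in JMO cells. With insulin they became 158 ± 8.6 in IR, 145 ± 0.15 in ∆CT, 87.2 ± 2.6 in JMO and 53.4 ± 2.1 CPM per kilobase in K1030R cells.

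Which subunit led per length in the basal state depended on the length used. With the exonic length *Jun* had the highest level per kilobase in all 5 basal groups, although in IR cells its libraries overlapped those of *Junb*. With the length of the longest transcript *Jun* led in DKO cells alone, *Junb* led in IR (15.4 against 13.9 CPM per kilobase for *Jun*), K1030R (15.1 against 13.8) and JMO cells (20.5 against 19.3), and *Fosl2* led in ∆CT cells (13.7 against 13.0). *Fosl2* lay between *Junb* and *Jun* in IR (14.9) and JMO cells (19.5). Library ranges were not compared with this length, and the SD of *Junb* was 3.3 in IR, 0.49 in K1030R and 1.1 in JMO cells. With insulin *Junb* led in IR (60.3 CPM per kilobase) and ∆CT cells (55.2) without overlap, and in JMO cells it overlapped *Jun* (25.1 and 24.2). *Junb* also led in these 3 groups with the longest transcript, at 76.7, 70.2 and 31.9 CPM per kilobase. *Fos* moved from the fifth place to the second in IR cells and from the sixth to the third in ∆CT cells, whereas it kept the sixth place in JMO and K1030R cells. *Fosb* was lowest in all 9 groups. Of the summed rise with insulin of 107 CPM per kilobase in IR cells, *Junb* made 45.2%, *Fos* 35.6% and *Jun* 16.1%. In ∆CT cells the rise was 99.5 CPM per kilobase, of which *Junb* made 45.8%, *Fos* 26.6% and *Jun* 20.7%. The JMO rise was 19.4 CPM per kilobase, with 46.1% from *Junb*, 25.3% from *Jun* and 14.5% from *Fos*.

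FOS family genes made 29.4% of the summed level in DKO cells and 27.6% in IR cells, which became 35.5% with insulin. In JMO cells their share was 33.8% and became 30.8% with insulin, and in K1030R cells it was 28.7% and 28.6%. In ∆CT cells it was 30.0% and 31.4%, but with the length of the longest transcript in place of the exonic length the ∆CT direction turned, from 35.2% to 32.5%. The shares in IR (32.8% to 36.3%) and JMO cells (38.2% to 34.3%) kept their direction with that length.

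**Figure D4:**
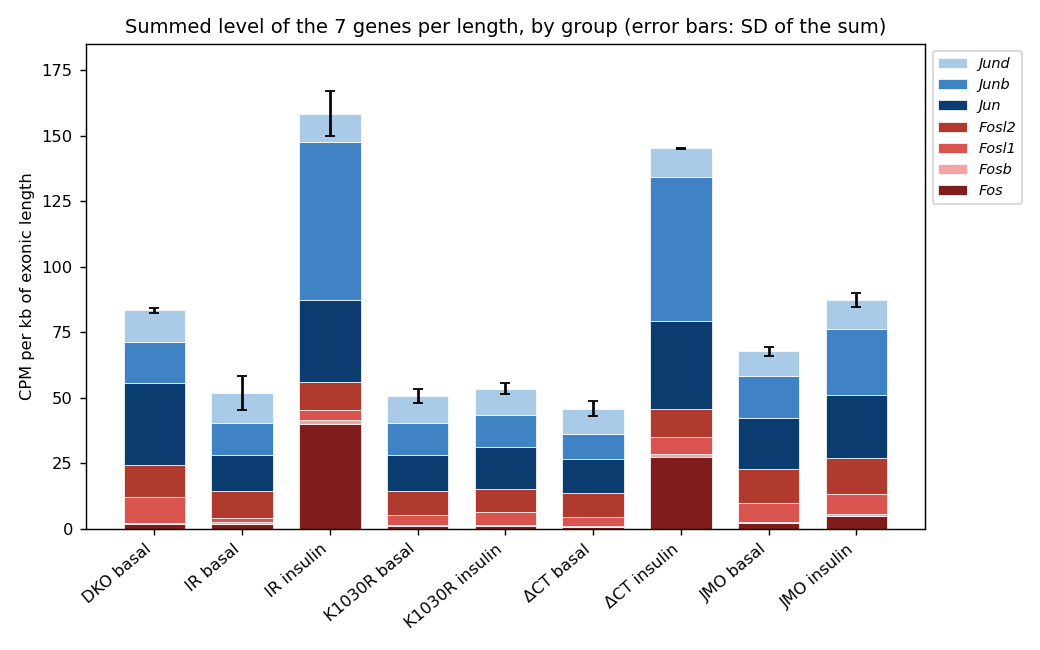
Summed level of the 7 genes in CPM per kilobase of exonic length, stacked by gene (blues for the JUN and reds for the FOS family), for the 9 groups, with bars for the SD of the sum over libraries. The sum falls from 83.4 in DKO to between 45.7 and 67.8 in the basal receptor lines and rises to 158 in IR and 145 in ∆CT cells with insulin, chiefly in the *Junb*, *Fos* and *Jun* segments.

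For each member the tested genes with the most similar profile were sought, by the root-mean-square difference of centred log2 CPM over the 9 group means. *Junb* was closest to *Btg2*, an antiproliferative early gene (0.10), followed by *Ccn1* (0.22) and *Arc* (0.27). *Jun* was closest to *Errfi1* (0.14), an inhibitor of EGF receptor signaling, then to *Hbegf* (0.14) and *Phlda1* (0.18). The nearest genes to *Fos* were *Ier2* (0.59), *Egr1* (0.66) and *Zfp36* (0.82), differences that are small only against its own range of 5.70 on the log2 scale. *Fosb* was nearest to *Carmn* (0.25), *Btg2* (0.31) and *Junb* (0.35). *Fosl1* was nearest to the kinase gene *Sgk1* (0.22) and the growth factor genes *Ereg* (0.25) and *Gdnf* (0.28). *Fosl2* (*Spsb1*, *Gm47626* and *Orai1*, 0.05 to 0.06) and *Jund* (*Pias4*, *Brf1* and *Brsk1*, all 0.05) had little range of their own, at 0.59 and 0.36. These values are a description of 9 means and carry no test.

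Other bZIP proteins can also pair with FOS or JUN. A list of 15 genes held ATF, BATF, JDP2 and MAF genes, *Nfe2l2* and *Creb5*, and 12 of the 15 were tested. Insulin raised 3 of them in IR and the same number in ∆CT cells, where 1.40% and 0.935% of all genes were called higher. The list median was 0.03 and 0.09 on the log2 scale, against -0.01 and -0.01 for all genes. *Atf3*, a stress-induced partner of JUN, had the largest change in IR cells (log2 fold change 1.12, adjusted p = 6.48e-06), and *Mafk*, a small MAF protein, rose by 0.28 (adjusted p = 0.00209). In K1030R and JMO cells edgeR called 0, with 1 at an unadjusted p below 0.05 in each, and limma-voom called 0 in both, while DESeq2 called 0 in K1030R and 1 in JMO cells. Against DKO, 5 were higher and 4 lower in IR cells, 3 and 4 in K1030R, 3 and 5 in ∆CT, and 0 and 3 in JMO cells. The shares of all genes called higher and lower were 25.6% and 24.1% in IR, 21.2% and 20.4% in K1030R, 23.4% and 22.9% in ∆CT, and 16.9% and 17.4% in JMO cells. The largest called changes were *Batf3* (1.18) and *Maf* (1.16) in IR cells, *Creb5* (0.79) and *Atf4* (0.67) in K1030R, *Creb5* (0.87) and *Mafk* (-0.86) in ∆CT, and *Mafk* (-0.31) and *Mafg* (-0.29) in JMO cells. *Batf3* was near the 0.5 CPM used to filter genes, with 0.959 ± 0.239 CPM (SD) in IR and 0.401 ± 0.270 CPM in DKO cells. The SE of its log2 fold change was 0.37.

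Genes that act above *Fos* and *Jun* changed little with insulin. All 9 listed SRF, ELK, MRTF and CREB factors were tested, and *Srf*, which binds the serum response element, was the 1 that rose, by 0.37 in IR cells (adjusted p = 0.00237) and by 0.44 in ∆CT cells (adjusted p = 0.00144). In K1030R and JMO cells all 3 tools called 0, and 1 factor had an unadjusted p below 0.05 in each. In each receptor line 4 of them were lower and 2 higher than in DKO cells, beside the same shares of all genes, with *Srf* from -0.65 to -0.43 and the ETS factor *Elk3* from -0.49 to -0.33. Of 14 kinases of the ERK and JNK cascades, *Araf* alone was called for insulin, at 0.17 in IR cells (adjusted p = 0.0219). In the other 3 lines edgeR, DESeq2 and limma-voom called 0 kinases, and between 1 and 4 had an unadjusted p below 0.05. Against DKO, 6 kinases were higher and 2 lower in IR and in ∆CT cells, 7 and 4 in K1030R, and 3 and 1 in JMO cells, where the share of all genes called was between 16.9% and 25.6% in each direction. *Rps6ka1*, which encodes the ERK-activated kinase RSK1, was higher in all 4 lines by 0.49 to 0.69, *Rps6ka2* was higher by 0.54 to 0.77 in IR, K1030R and ∆CT cells, and *Map2k1* was lower by -0.17 in JMO cells. Among 6 genes of FOS and JUN protein turnover edgeR, DESeq2 and limma-voom called 0 for insulin in every line, with 1 at an unadjusted p below 0.05, in K1030R cells. Against DKO *Nlk* was lower in IR (-0.33) and ∆CT cells (-0.28) and *Cops5* higher in ∆CT cells (0.14).

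Genes known as AP-1 targets in other cells, 14 of 16 of them tested, were mostly not called for 15 min of insulin, and most of them were lower in the basal receptor lines than in DKO cells. Insulin raised 2 in IR cells, *Hbegf* (0.93, adjusted p = 7.33e-11) and *Vegfa* (0.32, adjusted p = 0.000173), 3 in ∆CT, 1 in JMO and 0 in K1030R cells. In K1030R cells DESeq2 and limma-voom also called 0, and 3 had an unadjusted p below 0.05, and in JMO cells DESeq2 and limma-voom called 0. Of all genes, 1.40% were called higher with insulin in IR, 0.935% in ∆CT, 0.331% in JMO and 0.110% in K1030R cells. The list median with insulin was 0.15 in IR, 0.14 in ∆CT, 0.12 in K1030R and 0.05 in JMO cells. For all genes the medians were -0.01, -0.01, 0.0003 and -0.0008 in that order. The K1030R median was thus close to that of IR cells, although 0 genes of the list were called there. Against DKO, 13 of the 14 were lower in IR cells, 10 in K1030R cells, 13 in ∆CT cells and 8 in JMO cells, beside the shares of all genes given above. Their median log2 fold change was -1.09 for IR, -0.75 for K1030R, -0.98 for ∆CT and -0.37 for JMO cells, against 0.01 for all genes in each line.

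*Mmp13*, a collagenase gene, had the largest change of the list in ∆CT cells, from a mean of 6.79 ± 0.811 CPM in DKO to 0.508 ± 0.18 CPM (log2 fold change -3.72, adjusted p = 9.14e-16). It was also lower in K1030R (-3.48), IR (-2.40) and JMO cells (-1.58). *Il6*, which encodes a cytokine, went from 2.48 ± 0.452 CPM in DKO to 0.343 ± 0.079 CPM in IR cells (-2.85, adjusted p = 6.24e-10) and had -2.75 in ∆CT cells. The *Il6* means in IR and ∆CT cells (0.343 and 0.363 CPM) were below the 0.5 CPM used to filter genes. *Mmp13* in ∆CT cells was near that level, so these low values rest on few counts. *Mmp3*, which encodes stromelysin, was -2.73 in K1030R cells, and *Spp1*, which encodes osteopontin, went from 525 ± 10.7 to 268 ± 11.9 CPM in JMO cells (-0.97, adjusted p = 1.15e-15). The 1 gene that was higher in all 4 lines was *Hmox1*, at 0.15 to 0.50, named after its values were seen. The list was drawn up with results of these data known, so its counts are a description.

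**Figure D5:**
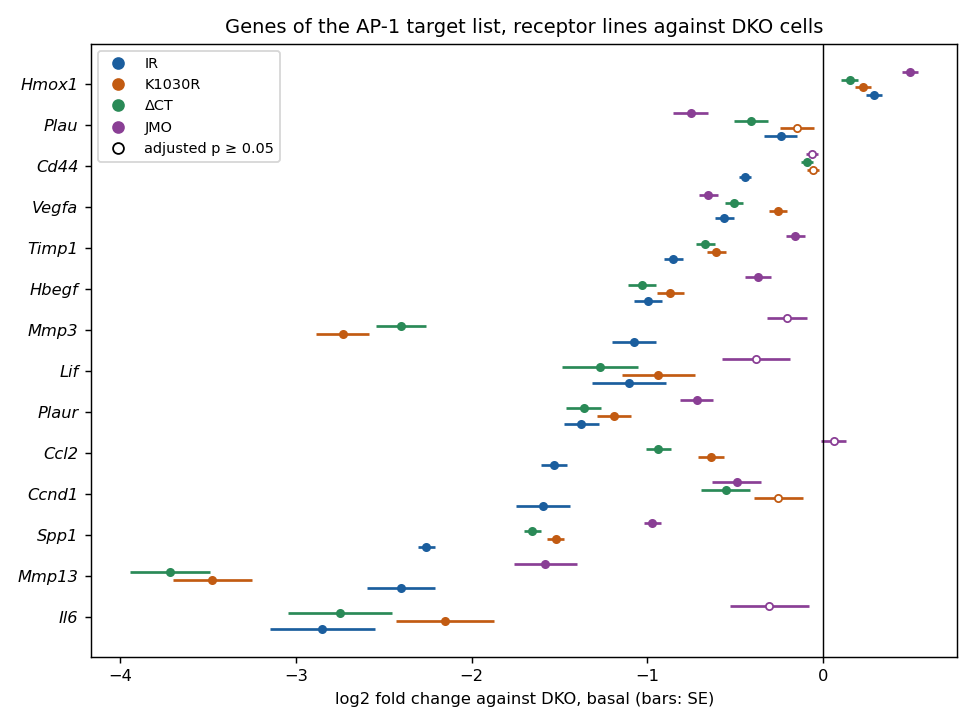
Log2 fold change of the 14 tested genes of the AP-1 target list in the basal receptor lines against DKO cells, with bars for the SE; open points have an adjusted p of 0.05 or more. Most points lie left of 0, down to -3.72 for *Mmp13* in ∆CT cells, JMO points are the nearest to 0 for 9 genes, and *Hmox1* is right of 0 in all 4 lines.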

How the data were processed

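RNA was extracted with TRIzol, libraries were made from poly(A) RNA with the KAPA mRNA HyperPrep kit, and single reads of 100 bases, reverse-stranded, were trimmed with fastp. The authors quantified Ensembl 98 transcripts of the mouse by kallisto, then totalled them by gene in tximport. The deposited values are expected counts per gene, which need not be whole (79.9% were), and they were rounded here. No authors' normalization precedes them.

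Genes with more than 0.5 CPM in at least 4 libraries were kept. All 26 libraries entered a single edgeR 4.0.16 quasi-likelihood model (R 4.3.3, robust, TMM scaling, 1 mean per group), with 20 comparisons, Benjamini-Hochberg adjustment over all tested genes and no minimum fold. SE is the log2 fold change divided by the root of F. Counts per member went down to 26, and intervals cover the spread between libraries. Positions and lengths came from GENCODE M21. DESeq2 1.42.0, limma-voom (limma 3.58.1), other scalings, filters, a 1.5-fold minimum, a replicate block, fits of the groups compared alone and leaving out each library were the alternatives. Named list genes were the 2 largest called changes per list for insulin in IR cells and for each line against DKO, and named similar genes the 3 nearest per member. The members, lists and tests were chosen with earlier results of these data known.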

Additional observations from a re-analysis of the deposited data

Results flagged for a closer look

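The results below were picked out because the insulin effect (log2 fold change, insulin against basal) differed between cell lines in edgeR's test of the difference itself. *Fos* differed by -4.10 between K1030R and IR, by -3.24 between JMO and IR, by -4.03 between JMO and ∆CT and by 4.89 between ∆CT and K1030R cells. *Junb* differed by -2.27, -1.67, -1.88 and 2.48 in the same order of comparisons. *Fosb* differed by -1.62, -1.47, -1.52 and 1.67, and *Jun* by -0.94, -0.83, -1.05 and 1.16, again in that order. *Fosl1* differed in 1 comparison, by -0.86 between JMO and ∆CT cells. No gap of a single library was assessed, since no group had more than 3 libraries.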

How the results depend on the processing

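Each line was 1 cell line with at most 3 libraries per condition, and the lowest member value rests on 26 counts. All 140 member results kept direction and side of the threshold without rounding, 138 with RLE scaling, 137 with DESeq2, with limma-voom and with at least 10 counts, 136 with upper-quartile scaling and with the replicate block, 126 with no filter and with the groups compared alone, and 102 with the 1.5-fold minimum. Of 3640 results without 1 library, 3488 did. The causes of the changes were not tested.

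The number of members called for basal ∆CT against IR, 5, became 3 with RLE or upper-quartile scaling, with at least 10 counts in 4 libraries and with the replicate block, 2 with the groups compared alone and 1 with the 1.5-fold minimum. It ran from 2 to 6 without 1 library. With no filter 1 member was called for insulin in K1030R (*Jun*), 1 for basal ∆CT against K1030R (*Junb*), 1 for the ∆CT minus IR insulin effect (*Fos*) and 2 for JMO minus K1030R (*Fos* and *Junb*). The last was 1 with DESeq2 and with the groups compared alone, and 0 to 1 without 1 library. Without 1 library, basal ∆CT against K1030R gave 0 to 1 and basal K1030R against IR 2 to 4. The 1.5-fold minimum left 1 member for insulin in JMO, 2 for basal IR and for K1030R against DKO, 3 for ∆CT, 0 for JMO against DKO, 1 each for K1030R, ∆CT and JMO against IR and for JMO against K1030R, and 2 for JMO against ∆CT.

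Equal replicate numbers did not pair the samples: 100 pairs of deviations with equal numbers had a median correlation of -0.00111 and none was over 0.1. With the replicate block, 4 of 140 calls changed: *Junb* (adjusted p = 0.0636) and *Jund* (0.0523) for basal ∆CT against IR and *Fosl1* for the JMO minus ∆CT effect (0.0567) were lost, and *Fosl1* for JMO minus IR (0.0477) was gained.

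The log2 values that turned direction were all from differences that were not called. With no filter *Jund* was -0.00548 for basal JMO against ∆CT and -0.000891 for the JMO minus ∆CT effect, and *Fosl1* was 0.00849 for the ∆CT minus IR effect, which was 0.0023 with at least 10 counts, 0.0133 with limma-voom and 0.00109 with the groups compared alone. With limma-voom *Fosb* was -0.00200 for basal JMO against ∆CT. Without 1 library the ranges that crossed 0 were, for basal differences, *Fos* IR minus DKO -0.0414 to 0.22, *Fosb* JMO minus ∆CT -0.0695 to 0.19, *Fosb* K1030R minus DKO -0.19 to 0.0575, *Fosl2* ∆CT minus K1030R -0.0109 to 0.0486, *Jun* K1030R minus IR -0.11 to 0.0515, *Junb* JMO minus DKO -0.00163 to 0.11, *Junb* K1030R minus IR -0.17 to 0.16, *Jund* IR minus DKO -0.17 to 0.0314 and *Jund* JMO minus ∆CT -0.11 to 0.11. For insulin against basal they were *Fosl2* K1030R -0.0479 to 0.0126, *Junb* K1030R -0.00225 to 0.073, *Jund* IR -0.17 to 0.0381 and *Jund* K1030R -0.14 to 0.0251. For differences of insulin effects they were *Fosb* ∆CT minus IR -0.17 to 0.24, *Fosb* JMO minus K1030R -0.0142 to 0.26, *Fosl1* ∆CT minus IR -0.19 to 0.17, *Fosl1* JMO minus K1030R -0.18 to 0.0405, *Jund* JMO minus ∆CT -0.0896 to 0.14 and *Jund* K1030R minus IR -0.0994 to 0.11.

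Counts over all genes moved by over 1.5 times with no filter, to 714 for insulin in IR cells, 178 for K1030R, 399 for ∆CT and 248 for JMO cells, and with the 1.5-fold minimum, to 34, 0, 33 and 6. With the groups compared alone they were 129 in IR, 98 in ∆CT and 92 in JMO cells, and without 1 library 131 to 1063 (without IR basal replicate 3) in IR, 100 to 174 in ∆CT, 26 to 70 in JMO and 10 to 30 in K1030R cells. For differences of insulin effects, no filter gave 293 genes for K1030R minus IR and 248 for JMO minus IR, and the ranges without 1 library were 52 to 182 and 38 to 97, each highest without IR basal replicate 3. With no filter the other differences had 141 (∆CT minus IR), 161 (JMO minus K1030R), 214 (JMO minus ∆CT) and 213 genes (∆CT minus K1030R), against 1, 4, 40 and 64. Basal ∆CT against K1030R had 529 genes, 137 with the groups compared alone and 275 to 597 without 1 library, and basal ∆CT against IR had 4013 and 2554 with the groups compared alone. For insulin the main counts were 288 in IR, 24 for K1030R, 155 for ∆CT and 56 for JMO cells.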
